A study of Homo sapiens with 5 samples.

Results

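The genes of fatty acid synthesis, desaturation, elongation, activation, glycerolipid assembly, lipolysis and droplet coating were followed in BT474, an established luminal breast cancer cell line with amplified HER2. The 38 genes were taken by symbol from a fixed list, and 37 of them had a row among the 18512 gene symbols of the authors' deposited table. LPIN3 was not analysed here. RNA came from persister cells, which survived 9 days of lapatinib (2 µM, a kinase inhibitor that acts on HER2 and EGFR), with drug and medium replaced every 3 days (3 libraries). It also came from parental cells kept in parallel with no lapatinib (2 libraries), and both groups received 0.01% DMSO. All libraries came from this 1 line, with polyadenylated RNA and no strand information. The table gives 1 FPKM value for each group (fragments per kilobase of transcript scaled to the library) and the authors' q-value, so the values below are the authors' and carry no SD. There was no group with brief exposure and none released from the drug, so effects of the drug, of arrest and of survival cannot be told apart. Fewer cells expressing a gene and less RNA per cell cannot be told apart either.

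Cells make fatty acids from cytosolic acetyl-CoA, which is carboxylated to malonyl-CoA and joined into palmitate by a single large synthase with NADPH as the reductant. Elongases and desaturases then set chain length and the number of double bonds, acyl-CoA synthetases activate the chains, and acyltransferases attach them to glycerol to form phospholipids and the triglyceride of lipid droplets. Lipases at the droplet surface release them again. Transcription of the early steps is driven by the sterol regulatory element binding proteins (SREBPs), and breast cancers with HER2 signalling are known for high levels of fatty acid synthase.

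Most tested genes of synthesis (5 of 6), desaturation (3 of 5) and activation (2 of 2) were called lower in persister cells, and apart from ELOVL6 these steps hold every gene of the pathway called lower by at least 1 on the log2 scale. Glycerolipid assembly (5 of 8) and the droplet coat (2 of 2) also had mostly lower calls, but none by at least 1. Desaturation, elongation, glycerolipid assembly and lipolysis held genes called in both directions. The higher call in elongation (ELOVL4) and the lower call in lipolysis (PNPLA3) were of genes under 1 FPKM in both groups. Calls below are q-values under 0.05 in the authors' deposited table, for genes that were tested there. Of the 37 genes, 21 were called lower and 5 higher, 8 were tested and not called, 2 were too low to be tested and 1 had no estimate. Across all 13617 tested genes, 69.9% were called, 39.0% lower and 30.9% higher. Differences are given as log2(FPKM + 1) of persister minus parental cells. On that scale 10 of the 34 tested genes of the pathway were called lower by at least 1, against 6.01% of all tested genes. By the same bound 1 was called higher, against 2.98%. The median over the 36 genes with an estimate was -0.43, and that over all tested genes was -0.04. High expression went with lower values across the table: among 5555 tested genes with a mean of at least 10 FPKM, 54.6% were called lower, 8.17% were called lower by at least 1, and the median was -0.24. At that level there were 20 genes of the pathway, and 19 of them were tested. Of these 19, 14 were called lower (73.7%), 9 of them by at least 1. A further 4 were called higher (21.1%), against 21.3% of all tested genes at that level. Of those, 1 was called higher by at least 1, against 2.48% of all tested genes at that level. The part of this trend in the counts was not tested. The FPKM of all 37 genes summed to 631 in persister cells and 1616 in parental cells, or 0.243% of the table's total in persister and 0.485% in parental cells.

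The median difference of tested genes was -1.77 for desaturation, -1.71 for activation and -1.21 for synthesis, against -0.49 for the droplet coat, -0.43 for assembly, -0.32 for elongation and -0.03 for lipolysis. Summed levels gave another order. Desaturase transcripts in persister cells came to 13.9% of their parental total and activating enzymes to 29.7%. For the synthesis enzymes the figure was 41.2%, for elongases 54.2% and for droplet coat proteins 60.1%. Lipolysis genes stood at 100.2% and glycerolipid assembly genes at 124% of the parental sum. The lipolysis sum includes MGLL, at 19.2 FPKM in persister and 33.3 FPKM in parental cells, which has no estimate and no part in the median. Nearly all the rest of that sum was PNPLA2, at 44.7 FPKM in persister and 29.7 FPKM in parental cells. A total weighs the abundant members most: the assembly sum was higher although 5 of its 8 genes were called lower, and AGPAT2 alone held 64.7 of its 126 FPKM in persister cells and 27.0 of its 101 FPKM in parental cells. Desaturase transcripts were mainly SCD and FADS2, at 37.9% and 33.8% in persister cells and at 68.1% and 26.9% in parental cells. Differences between steps were not tested, because the table has 1 value a group.

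**Figure D1:**
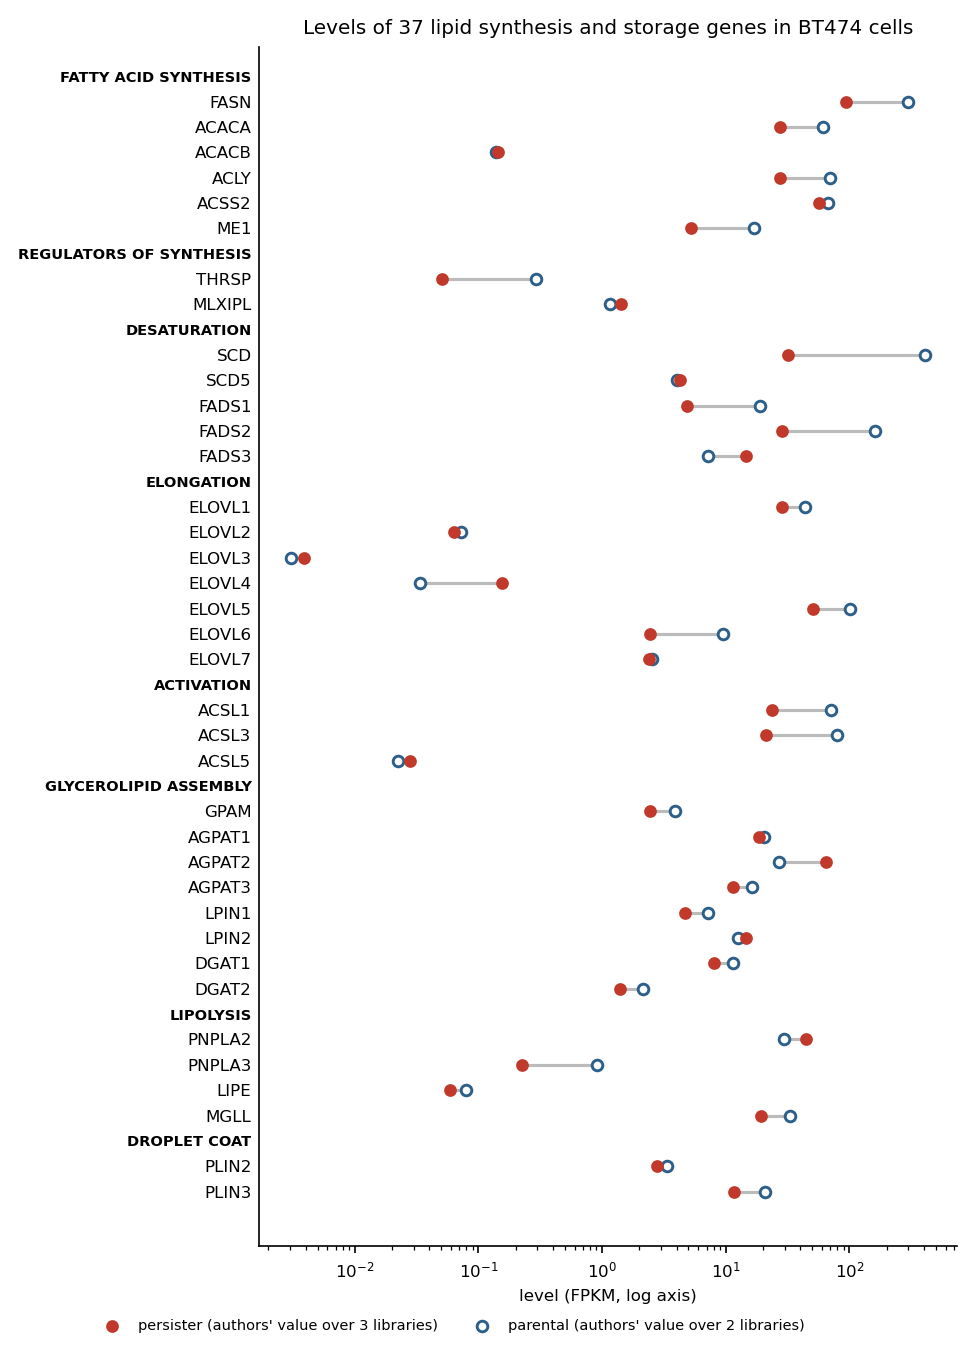
Level of each of the 37 genes in FPKM (log axis), ordered by step, with filled points for persister and open points for parental cells; each point is the authors' value for a group and has no error bar. SCD shows the widest gap among the abundant genes, at 32.0 FPKM in persister and 411 FPKM in parental cells, and AGPAT2 the clearest shift to higher values, at 64.7 FPKM in persister and 27.0 FPKM in parental cells.

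Fatty acid synthesis was lower at FASN, ACACA, ACLY and ME1. FASN, the synthase that builds palmitate, had 93.8 FPKM in persister cells and 298 FPKM in parental cells, a 3.17-fold fall. It stood 431st by level in persister cells, against 153rd in parental cells. ACACA, the cytosolic carboxylase that makes malonyl-CoA for the synthase, fell to 27.6 FPKM in persister cells, against 61.2 FPKM in parental cells. ACLY, which cleaves citrate to cytosolic acetyl-CoA, fell to 27.7 FPKM, against 69.3 FPKM in parental cells. ME1, the malic enzyme that yields NADPH, fell to 5.27 FPKM, against 16.8 FPKM in parental cells, and with FASN it had the largest ratio in this step at 3.18-fold. All 4 genes had q-values listed as 0 in the authors' deposited table, where the smallest value above 0 was 1.2e-15.

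The other source of cytosolic acetyl-CoA moved less. ACSS2, which makes acetyl-CoA from acetate, had 56.7 FPKM in persister and 67.7 FPKM in parental cells, a difference of -0.25 (q = 3.03e-04 in the authors' deposited table). ACLY and ACSS2 had nearly equal levels in parental cells (ratio 1.02), and in persister cells ACLY was at 0.488 of the ACSS2 level. The direction of ACSS2 rests on scaling: with persister values multiplied to match the parental FPKM sum, the difference was 0.10. ACACB, the carboxylase at the mitochondrial surface that limits fatty acid oxidation, was at 0.143 and 0.140 FPKM in persister and parental cells and was not called (q = 0.893 in the authors' deposited table). It supplied 0.515% and 0.228% of the carboxylase transcripts in persister and parental cells. Of the regulators, MLXIPL, the carbohydrate-responsive factor ChREBP, had 1.41 FPKM in persister and 1.17 FPKM in parental cells (q = 0.0587 in the authors' deposited table). THRSP, which encodes the lipogenic protein Spot 14, had 0.0505 and 0.289 FPKM in persister and parental cells, and this 5.73-fold ratio at very low levels was not called (q = 0.285 in the authors' deposited table).

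Desaturation showed the deepest falls and a member that rose. SCD, the stearoyl-CoA desaturase that makes oleate and palmitoleate, had 32.0 FPKM in persister cells and 411 FPKM in parental cells, a 12.9-fold fall. Its difference of -3.65 was the 10th largest fall among all tested genes, and by level it stood 1740th in persister cells, against 88th in parental cells. SCD5, the second human enzyme of this activity, had 4.31 and 4.02 FPKM in persister and parental cells and was not called (q = 0.436 in the authors' deposited table). SCD exceeded SCD5 by 7.42 times in persister cells and by 102 times in parental cells. SCD also went below FASN, with a level ratio of 0.341 in persister cells, against 1.38 in parental cells. The reference annotation lists a processed pseudogene of SCD (SCDP1), so reads shared with it make the level uncertain.

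The front-end desaturases of polyunsaturated fatty acids fell as well. FADS2, which opens the conversion of linoleate and alpha-linolenate, fell to 28.5 FPKM in persister cells, against 163 FPKM in parental cells, a 5.70-fold fall. FADS1, which acts after FADS2 and completes arachidonate, fell to 4.89 FPKM, against 19.1 FPKM in parental cells, a 3.90-fold fall. FADS3, a relative that introduces a double bond into sphingoid bases, rose to 14.6 FPKM in persister cells, against 7.16 FPKM in parental cells, a 2.04-fold rise. The q-value was listed as 0 for each of these 3 genes in the authors' deposited table. FADS2 exceeded FADS3 by 1.95 times in persister cells and by 22.7 times in parental cells. FADS1 and FADS2 lie on opposite strands and share 490 exon bases in GENCODE 29, which is 4.79% of the FADS1 and 4.44% of the FADS2 exon bases, so reads from that stretch cannot be assigned. A pseudogene, FADS2P1, is also annotated.

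The 3 FADS genes are neighbours on chromosome 11, and the locus did not move as a block. FEN1, which lies beside FADS1 and encodes a nuclease of DNA replication, fell to 12.04 FPKM in persister cells, against 37.1 FPKM in parental cells. On the far side of FADS3, RAB3IL1 had 5.48 and 4.72 FPKM in persister and parental cells and was not called (q = 0.0598 in the authors' deposited table). Among the 13 genes around the locus, which include the 3 FADS genes, FADS3 alone was called higher. DAGLA, MYRF, FEN1, FTH1 and INCENP were called lower, as were FADS1 and FADS2. SYT7, TMEM258, RAB3IL1 and BEST1 were not called, and SCGB1D1 was not tested. Over all tested genes 39.0% were called lower and 30.9% higher. These neighbours were chosen after their values were seen.

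**Figure D2:**
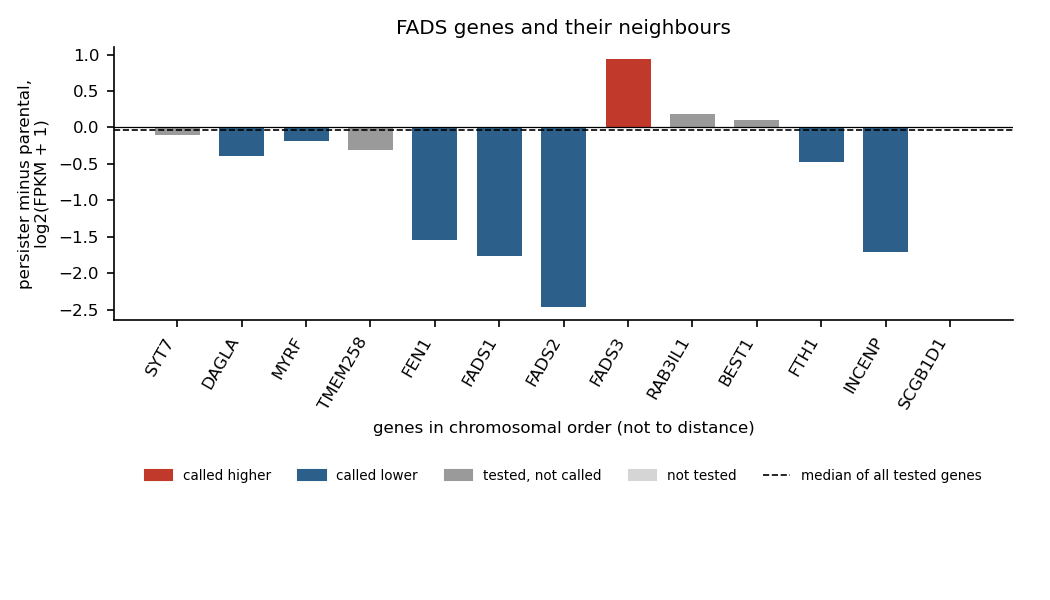
Difference in log2(FPKM + 1), persister minus parental cells, for the FADS genes and their protein-coding neighbours in chromosomal order; bars are coloured by the authors' call and have no error bar. FADS1 (-1.77) and FADS2 (-2.47) stand next to FADS3 (0.93), which is called higher.

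Promoters of genes that fell and genes that rose are shown here because members of the pathway moved together or apart. Each line gives the 250 bases before the annotated start from RefSeq (build GRCh38.p14), read 5′ to 3′ on the strand of the gene. Capitals mark matches, on either strand, to CCAAT (the NF-Y box), to TCACNCCAC and to TCANNCCA, which are a strict and a loose form of the sterol regulatory element, and every TCACNCCAC match holds a TCANNCCA match. SCD and ACLY fell, as did FADS1, and FADS3, AGPAT2 and PNPLA2 rose. They are examples from the 26 called genes of the pathway.
SCD, chr10:100346983-100347232, plus strand: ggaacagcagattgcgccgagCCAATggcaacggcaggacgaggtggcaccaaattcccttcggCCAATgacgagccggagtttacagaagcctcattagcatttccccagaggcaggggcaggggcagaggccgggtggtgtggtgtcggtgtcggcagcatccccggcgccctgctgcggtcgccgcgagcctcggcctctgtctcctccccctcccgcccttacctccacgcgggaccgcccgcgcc
ACLY, chr17:41919023-41919272, minus strand: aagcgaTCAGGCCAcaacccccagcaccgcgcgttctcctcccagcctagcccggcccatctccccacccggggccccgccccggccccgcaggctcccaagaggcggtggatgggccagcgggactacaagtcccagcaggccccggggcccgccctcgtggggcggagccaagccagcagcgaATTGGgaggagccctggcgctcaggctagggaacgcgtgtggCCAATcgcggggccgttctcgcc
FADS1, chr11:61817004-61817253, minus strand: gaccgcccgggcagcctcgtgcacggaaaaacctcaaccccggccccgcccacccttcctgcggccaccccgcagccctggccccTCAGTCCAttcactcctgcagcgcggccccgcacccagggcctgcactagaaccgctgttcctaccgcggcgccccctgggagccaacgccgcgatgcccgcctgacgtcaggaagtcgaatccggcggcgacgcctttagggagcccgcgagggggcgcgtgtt
FADS3, chr11:61891546-61891795, minus strand: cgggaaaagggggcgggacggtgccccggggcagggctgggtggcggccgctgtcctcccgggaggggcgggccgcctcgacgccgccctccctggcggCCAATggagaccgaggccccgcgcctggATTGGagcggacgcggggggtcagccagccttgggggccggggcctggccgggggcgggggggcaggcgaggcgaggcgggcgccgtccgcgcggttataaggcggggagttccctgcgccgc
AGPAT2, chr9:136687458-136687707, minus strand: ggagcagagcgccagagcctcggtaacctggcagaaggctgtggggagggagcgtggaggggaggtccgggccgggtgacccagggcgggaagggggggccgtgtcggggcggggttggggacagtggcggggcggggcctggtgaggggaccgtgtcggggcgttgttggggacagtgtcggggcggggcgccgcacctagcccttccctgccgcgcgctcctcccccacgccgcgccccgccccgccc
PNPLA2, chr11:818664-818913, plus strand: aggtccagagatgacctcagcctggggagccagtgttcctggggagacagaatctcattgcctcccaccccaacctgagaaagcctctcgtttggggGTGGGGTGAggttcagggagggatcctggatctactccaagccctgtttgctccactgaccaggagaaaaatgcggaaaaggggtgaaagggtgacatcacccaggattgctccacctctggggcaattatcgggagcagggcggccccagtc

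SCD holds 2 CCAAT boxes and FADS3 holds 2, on opposite strands, while AGPAT2 has none of the marked motifs in these letters. ACLY carries a loose sterol element and 2 CCAAT boxes, and FADS1 a loose sterol element alone. The window of another annotated ACLY start holds 2 CCAAT boxes and no loose sterol element. The strict form TCACNCCAC stands in PNPLA2, on the strand opposite to the gene. Shares were taken over 52 promoter windows (250 bases before to 50 after a start) that belong to 32 of the 37 genes. Some genes have several windows, and FASN, DGAT1, DGAT2, PNPLA3 and MGLL have none. TCACNCCAC was found in 2 of the 52 windows, or 3.85%, against 1.13% of all 35116 windows, and TCANNCCA in 21.2% against 13.8%. CCAAT was found in 48.1% against 34.6%, and GGGCGG, the GC box, in 69.2% against 45.0%. CACGTG, the E-box, was found in 7.69% against 7.26%. In windows of genes called lower and called higher, CCAAT stood in 14 of 29 and in 2 of 6, and GGGCGG in 20 of 29 and 5 of 6. In the same windows TCANNCCA stood in 6 and 1, CACGTG in 2 and 2, and TCACNCCAC in 1 and 1. Windows of genes called higher were few, and differences between these windows were not tested. A match is a description of letters and not a site.

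Elongases divided by level. ELOVL5, which lengthens polyunsaturated chains, had 51.3 FPKM in persister and 101 FPKM in parental cells, a 1.97-fold fall with q listed as 0 in the authors' deposited table. ELOVL1, which extends saturated and monounsaturated very long chains, fell to 28.6 FPKM in persister cells, against 43.6 FPKM in parental cells (q = 4.95e-11 in the authors' deposited table). ELOVL6, the elongase that turns palmitate into stearate, the substrate of SCD, fell to 2.43 FPKM in persister cells, against 9.47 FPKM in parental cells. That 3.89-fold fall was the largest among the elongases, so ELOVL6 made up 2.86% of elongase transcripts in persister cells and 6.04% in parental cells. ELOVL7 was not called, at 2.42 and 2.52 FPKM in persister and parental cells (q = 0.689 in the authors' deposited table). The others had very low levels in both groups: ELOVL2 was not called at 0.0636 FPKM in persister and 0.0725 FPKM in parental cells, ELOVL3 was not tested at 0.0039 FPKM in persister and 0.0030 FPKM in parental cells, and ELOVL4, the elongase of the longest chains, was called higher at 0.154 FPKM in persister and 0.0339 FPKM in parental cells.

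Activation fell at both expressed synthetases. ACSL3, which localises to nascent lipid droplets, had 21.1 FPKM in persister cells and 79.9 FPKM in parental cells, a 3.79-fold fall. ACSL1, the other abundant long-chain acyl-CoA synthetase, had 23.8 and 71.1 FPKM in persister and parental cells, a 2.99-fold fall. Both q-values were listed as 0 in the authors' deposited table. ACSL5, a mitochondrial and reticular form, was at 0.0278 and 0.0222 FPKM in persister and parental cells and was not tested. ACSL4, which favours arachidonate and is not one of the 38 genes, was called higher at 0.50 FPKM in persister and 0.221 FPKM in parental cells, and supplied 1.10% of the family's transcripts in persister and 0.146% in parental cells.

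**Figure D3:**
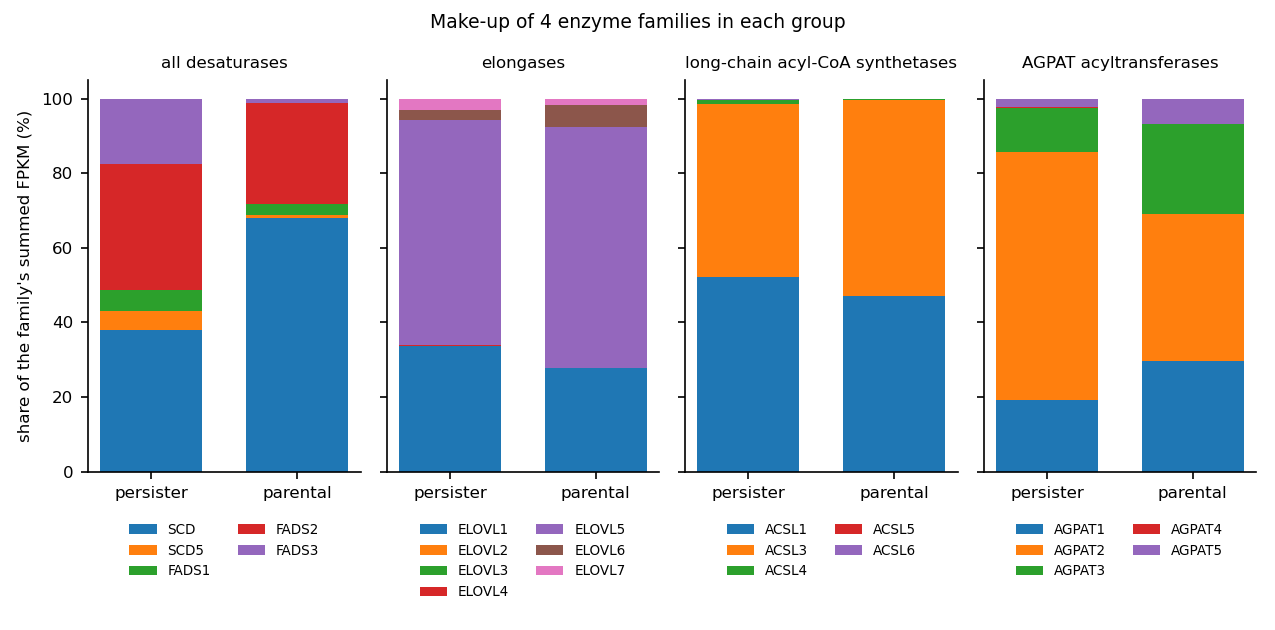
Share of each isozyme in the summed FPKM of its family (%), persister at left and parental at right in each panel; each bar is a single value per group. SCD takes 37.9% of desaturase transcripts in persister and 68.1% in parental cells, FADS3 takes 17.3% in persister and 1.19% in parental cells, and AGPAT2 takes 66.5% of the AGPAT family in persister and 39.4% in parental cells.

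Glycerolipid assembly was mostly called lower by small amounts, with 1 strong exception. AGPAT2, which acylates lysophosphatidic acid and whose loss causes congenital lipodystrophy in humans, had 64.7 FPKM in persister cells and 27.0 FPKM in parental cells, a 2.39-fold rise with q listed as 0 in the authors' deposited table. Its difference of 1.23 was the 248th largest rise among tested genes. AGPAT1, a related enzyme, had 18.6 and 20.4 FPKM in persister and parental cells and was not called (q = 0.256 in the authors' deposited table). Exons on the opposite strand overlap 29.9% of the AGPAT1 exon bases, so its level is uncertain. AGPAT3 fell to 11.5 FPKM in persister cells, against 16.4 FPKM in parental cells (q = 8.10e-08 in the authors' deposited table). AGPAT2 stood at 3.47 times the AGPAT1 level in persister cells and at 1.32 times in parental cells.

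The steps before and after this acylation were called in both directions. GPAM, the mitochondrial enzyme of the first acylation, fell to 2.45 FPKM in persister cells, against 3.89 FPKM in parental cells (q = 1.04e-11 in the authors' deposited table). GPAT4, an enzyme of the same first step in the endoplasmic reticulum that is not one of the 38 genes, was called higher at 16.0 FPKM in persister and 11.9 FPKM in parental cells (q = 3.30e-08 in the authors' deposited table). GPAT3, its close relative, was called higher too, at 1.79 FPKM in persister and 1.09 FPKM in parental cells. LPIN1, a phosphatase that makes diacylglycerol, fell to 4.65 FPKM, against 7.25 FPKM in parental cells. LPIN2, its relative, was called higher at 14.6 FPKM in persister and 12.5 FPKM in parental cells, a 1.16-fold ratio (q = 0.00609 in the authors' deposited table). LPIN2 thereby supplied 75.9% of the transcripts of this pair in persister cells and 63.4% in parental cells. The final enzymes of triglyceride synthesis were both called lower, DGAT1 at 8.05 FPKM in persister and 11.5 FPKM in parental cells and DGAT2 at 1.398 FPKM in persister and 2.16 FPKM in parental cells. DGAT1 made up 85.2% of this pair in persister cells and 84.2% in parental cells.

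Lipolysis moved both ways. PNPLA2, the triglyceride lipase ATGL that starts droplet breakdown, rose to 44.7 FPKM in persister cells, against 29.7 FPKM in parental cells, a 1.504-fold rise (q = 3.64e-14 in the authors' deposited table). An annotated antisense gene covers 10.4% of the PNPLA2 exon bases. PNPLA3, a relative known for a liver fat variant, fell to 0.225 FPKM in persister cells, against 0.906 FPKM in parental cells, a 4.03-fold fall at a low level. A gene on the same strand shares 4.58% of the PNPLA3 exon bases. That gene had 21.1 FPKM in persister and 31.1 FPKM in parental cells, so the PNPLA3 level is uncertain. LIPE, the hormone-sensitive lipase, was at 0.0587 and 0.0791 FPKM in persister and parental cells and was not called (q = 0.682 in the authors' deposited table). MGLL, which splits monoglycerides, had 19.2 FPKM in persister and 33.3 FPKM in parental cells, but the authors' table sets its fold to 1 and its q-value to 1, so no call exists for it.

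Both coat genes of the pathway, PLIN3 and PLIN2, were called lower as deposited. PLIN3, a coat protein that moves from the cytosol to droplets, fell to 11.7 FPKM in persister cells, against 20.8 FPKM in parental cells, with q listed as 0 in the authors' deposited table. An antisense gene covers 17.8% of the PLIN3 exon bases. PLIN2, the coat protein that tracks stored lipid in most cells, was at 2.79 and 3.34 FPKM in persister and parental cells (q = 0.0469 in the authors' deposited table). Its call was lost at a threshold of 0.01, and its difference of -0.20 became 0.07 when persister values were multiplied to match the parental FPKM sum. The q-values were not recomputed under that scaling, so it changed only the direction of genes already called. By sign, the called genes were then 5216 higher and 4298 lower over all genes, against 4206 higher and 5308 lower as deposited. In the pathway the called genes were 7 higher and 19 lower by sign. The scaling moved the median of all tested genes to 0.18, against -0.04 as deposited, and that of the 36 genes to -0.16. Other perilipins were scarce: PLIN1, the coat protein of fat cells, was called higher at 0.834 FPKM in persister and 0.359 FPKM in parental cells. PLIN4 was called higher at 0.382 FPKM in persister and 0.181 FPKM in parental cells, and PLIN5 lower at 0.0639 FPKM in persister and 0.122 FPKM in parental cells.

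**Figure D4:**
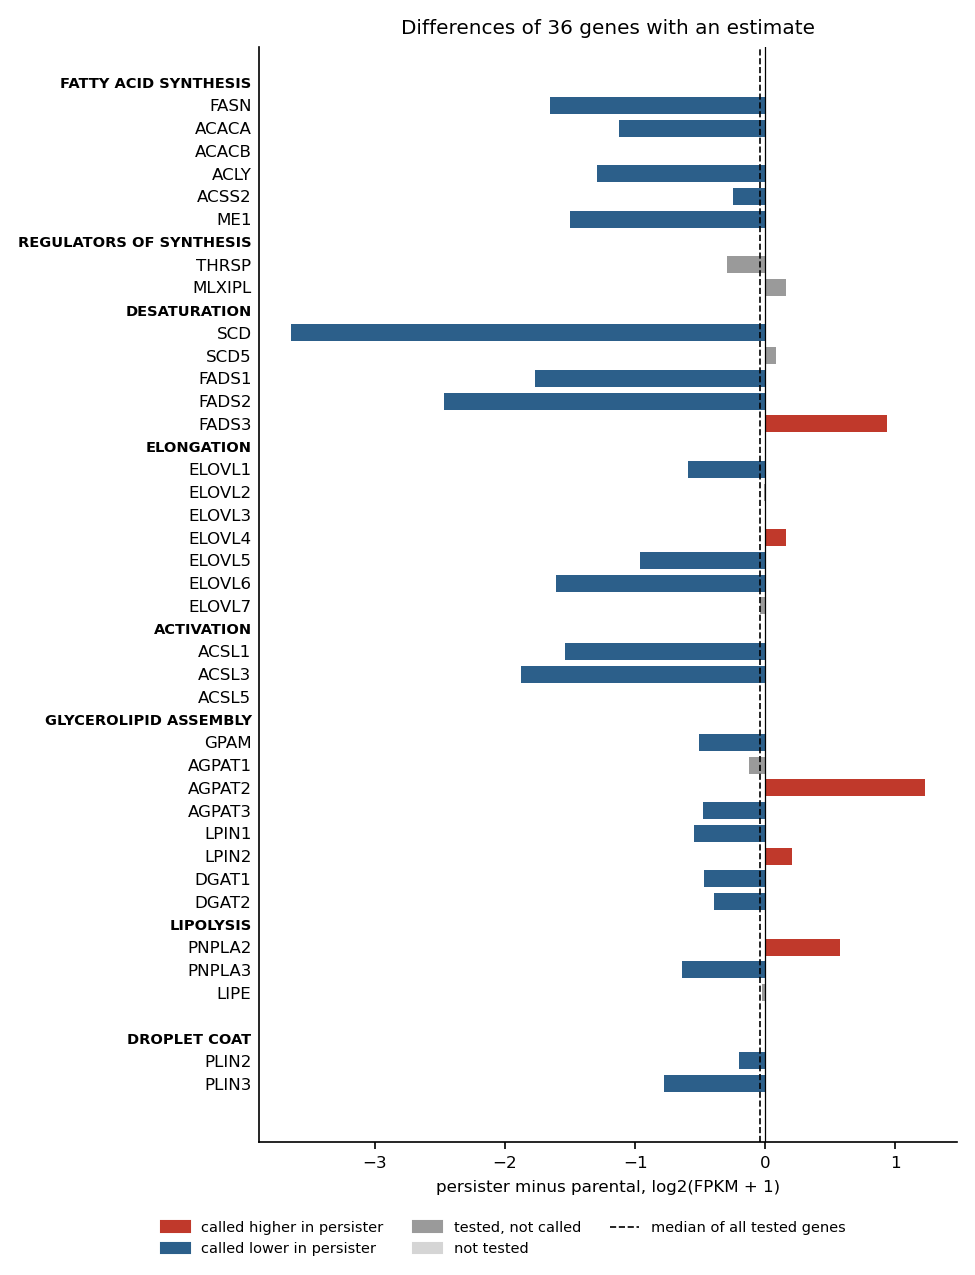
Difference in log2(FPKM + 1), persister minus parental cells, for the 36 genes with an estimate, by step and coloured by the authors' call; the dashed line is the median of all tested genes (-0.04), and there are no error bars. Bars lower by at least 1 occur in synthesis, desaturation, elongation and activation, and none in assembly, lipolysis or the droplet coat.

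Among 15 tested genes that control lipid synthesis, 9 were called lower and 4 higher, with a median of -0.36. Over all tested genes 39.0% were called lower and 30.9% higher. Most genes on this list had a mean of at least 10 FPKM, and at that level 54.6% of tested genes were called lower and 21.3% higher. The list was close to those shares, and its difference from them was not tested. SREBF1, which encodes the SREBP form that drives fatty acid genes, fell to 16.8 FPKM in persister cells, against 45.1 FPKM in parental cells. INSIG1, which retains SREBP precursors in the endoplasmic reticulum and is itself an SREBP target, fell to 15.3 FPKM, against 43.0 FPKM in parental cells. MID1IP1, a partner of acetyl-CoA carboxylase related to THRSP, fell to 14.5 FPKM, against 30.7 FPKM in parental cells. SREBF2, the form tied to cholesterol genes, fell to 30.2 FPKM in persister cells, against 53.0 FPKM in parental cells. SCAP, the escort of SREBPs, had 13.5 and 12.6 FPKM in persister and parental cells and was not called (q = 0.270 in the authors' deposited table). MBTPS1, the protease that makes the first cut in SREBPs, rose to 59.9 FPKM in persister cells, against 32.5 FPKM in parental cells. INSIG2, the relative of INSIG1, rose to 16.7 FPKM, against 10.8 FPKM in parental cells, and the coactivator PPARGC1A to 1.92 FPKM, against 0.825 FPKM in parental cells.

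Carbon and NADPH supply was mostly lower. Of 11 tested genes, 9 were called lower (81.8%) and 0 higher, with a median of -0.86. With the FPKM sums matched and the q-values kept, 8 of the called genes were lower and 1 higher by sign. All tested genes had 39.0% called lower and 30.9% higher. At a mean of at least 10 FPKM, the level of most of these genes, 54.6% were called lower and 21.3% higher. IDH1, the cytosolic isocitrate dehydrogenase, fell to 35.9 FPKM in persister cells, against 96.4 FPKM in parental cells. PC, pyruvate carboxylase, fell to 2.74 FPKM, against 7.22 FPKM in parental cells. Of 8 tested partners of the elongases and desaturases, 5 were called lower (62.5%) and 1 higher (12.5%), with a median of -0.41. Most partners also had a mean of at least 10 FPKM, and their share called lower was near the 54.6% at that level. Differences of both lists from these shares were not tested. With the FPKM sums matched and the q-values kept, 4 of the called partners were lower and 2 higher by sign. Among them HSD17B12, the ketoacyl-CoA reductase of elongation, fell to 18.0 FPKM in persister cells, against 40.7 FPKM in parental cells. The cytochrome b5 genes on this list fell too, CYB5B to 12.3 FPKM against 22.9 FPKM in parental cells and CYB5A to 29.96 FPKM, against 49.2 FPKM in parental cells.

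Lists further from synthesis were divided, as was the table, where 39.0% of all tested genes were called lower and 30.9% higher. Differences of these lists from those shares were not tested. Of 14 tested genes among other acyl-CoA synthetases and uptake genes, 4 were called lower and 6 higher, with a median of 0.02. With at least 1 FPKM required in 1 or both groups, 4 were lower and 2 higher. The acyl-CoA binding protein DBI fell to 114 FPKM in persister cells, against 340 FPKM in parental cells, and the transporter SLC27A2 to 2.98 FPKM, against 7.56 FPKM in parental cells. SLC27A4, another fatty acid transporter, fell to 21.4 FPKM in persister cells, against 35.1 FPKM in parental cells. Of 14 tested genes among other acyltransferases, 7 were called lower and 6 higher, with a median of -0.02. MBOAT2, which adds fatty acids to lysophospholipids, rose to 36.1 FPKM in persister cells, against 15.0 FPKM in parental cells, while LPCAT1, an acyltransferase of phosphatidylcholine, fell to 79.2 FPKM, against 142 FPKM in parental cells. AGPAT5, a mitochondrial relative of AGPAT2, fell to 2.30 FPKM in persister cells, against 4.61 FPKM in parental cells.

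Phospholipid and droplet genes outside the 38 were also called in both directions, as were all tested genes (39.0% lower and 30.9% higher). Differences from those shares were not tested here either. Of 16 tested genes of the phospholipid branch, 8 were called lower and 5 higher, with a median of -0.13. CHPT1, a cholinephosphotransferase, fell to 7.04 FPKM in persister cells, against 16.4 FPKM in parental cells. SELENOI, an ethanolaminephosphotransferase listed under its older symbol EPT1, fell to 8.27 FPKM against 15.0 FPKM in parental cells. PGS1, of the cardiolipin route, rose to 8.36 FPKM in persister cells, against 3.70 FPKM in parental cells. Of 16 tested droplet and lipolysis genes, 6 were called lower and 7 higher, with a median of 0.06. With at least 1 FPKM required in 1 or both groups, 5 were lower and 4 higher. HSD17B11, a dehydrogenase of the droplet surface, rose to 12.4 FPKM in persister cells, against 1.37 FPKM in parental cells. AUP1, which binds droplets and the endoplasmic reticulum, fell to 43.8 FPKM against 74.6 FPKM in parental cells, and the monoglyceride lipase ABHD6 to 1.48 FPKM, against 2.80 FPKM in parental cells.

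Mitochondrial fatty acid synthesis, a separate pathway that feeds lipoic acid formation, had 3 of 9 genes called lower and 1 higher, with a median of -0.12. The other 5 were not called. Its shares of 33.3% lower and 11.1% higher were below the 39.0% and 30.9% of all tested genes, a difference that was not tested. NDUFAB1, its acyl carrier protein, fell to 53.8 FPKM in persister cells, against 96.5 FPKM in parental cells, and MCAT, its malonyl transferase, to 6.88 FPKM, against 10.4 FPKM in parental cells. LIPT2, a lipoyl transferase, fell to 1.55 FPKM in persister cells, against 2.60 FPKM in parental cells. CHKB and BSCL2 were on these lists and were not analysed here.

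**Figure D5:**
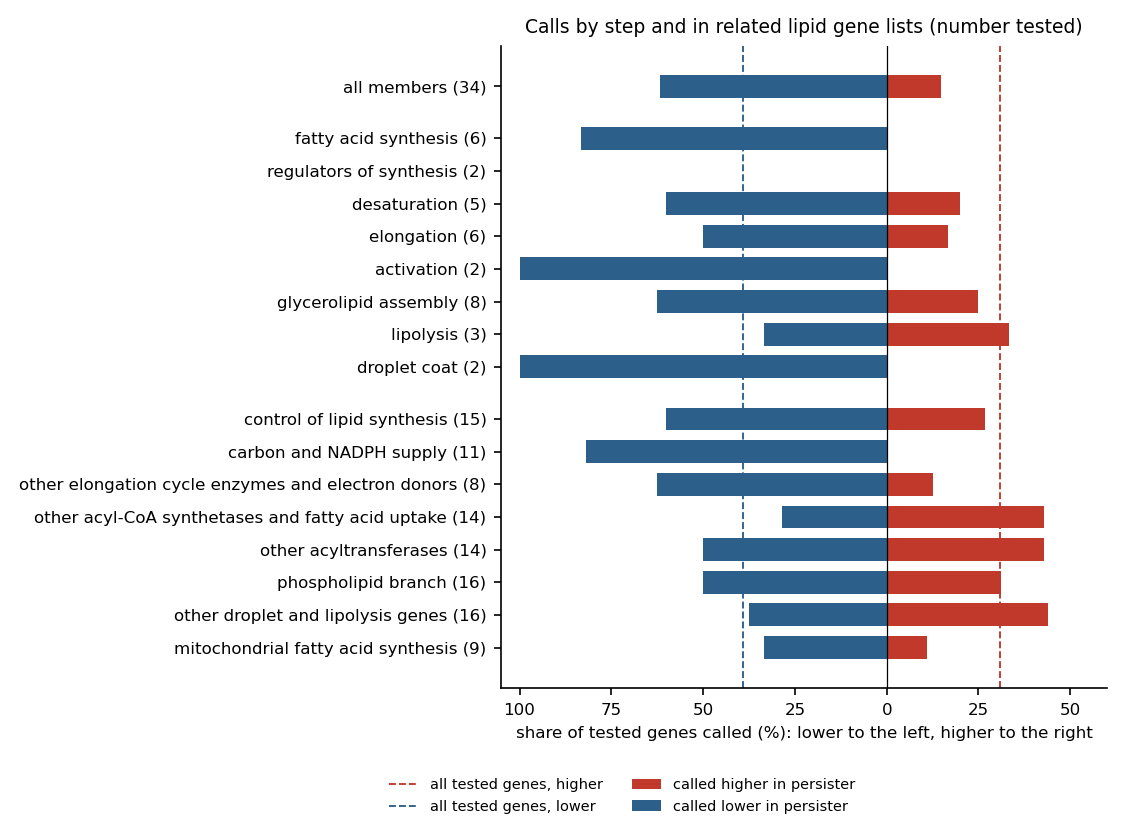
Share of tested genes called lower (left) and higher (right) in persister cells for the pathway, its steps and the related lists, with the number tested in brackets; dashed lines mark all tested genes at 39.0% lower and 30.9% higher. Synthesis (83.3% lower) and supply (81.8% lower) have no gene called higher as deposited. With the FPKM sums matched and the q-values kept, each has 1 called gene with a positive difference.

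The label of a luminal epithelial line was met by its markers, of which 7 of 8 had at least 1 FPKM, with sums of 1760 FPKM in persister and 2370 FPKM in parental cells. KRT8, KRT18, KRT19, EPCAM and CDH1 were called lower, by 1.29-fold to 1.61-fold. GATA3, a luminal transcription factor, was called higher at 43.3 FPKM in persister and 14.1 FPKM in parental cells, and ESR1, the estrogen receptor, at 18.2 FPKM in persister and 12.4 FPKM in parental cells. Their part in the results above was not tested. ERBB2, which encodes HER2, was listed at 0 in both groups, so its level cannot be read. Adipocyte markers, of interest because fat cells share this pathway, stayed at or below 0.834 FPKM in persister and 0.359 FPKM in parental cells. Of the 3 immune and 3 endothelial markers, none reached 1 FPKM in either group. Among the 4 fibroblast markers only COL1A1 did, at 8.73 and 13.4 FPKM in persister and parental cells.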

How the data were processed

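Polyadenylated RNA from 3 persister and 2 parental BT474 samples, which the submitters call biological replicates, was sequenced without strand information. The submitters' processing notes name the build hg18 and the tools TopHat2 2.0.6, CASAVA 1.8, Cuffdiff 2.0.2 and Cufflinks, with no settings. The authors deposited a single table of 18803 rows, which per the file headers gives each group's FPKM, a q-value and a fold change. Counts and values of single libraries are not in it, so depth is unknown, no SD or interval is given, and the authors' deposited q-value replaced the test planned for values per library. Rows with a q-value of 1 were taken as not tested, and in 142 rows the fold and q-value are set to 1 although FPKM differed by over 0.6% (no estimate).

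For 269 symbols on several rows, the most abundant row was kept (AGPAT1 and DGAT1 each have another row listed at 0). Differences use a pseudocount of 1, which understates changes of low genes. The genes, lists, motifs and tests were chosen with earlier results of these data known. Named genes were all 37, up to 3 called genes with the largest difference in each other list (1 of them is not reported here), and SREBF1, SREBF2, SCAP, INSIG1 and MID1IP1; ACSL4, GPAT3, GPAT4, MBTPS1, INSIG2, PPARGC1A, PLIN1, PLIN4, PLIN5 and the FADS neighbours were added after their values were seen. Symbols and promoters came from RefSeq (GRCh38.p14) and exon overlaps from GENCODE 29. Calls were made with Python 3.11.15 and pandas 2.3.3, in a step tested on simulated data. Alternatives changed the threshold, pseudocount, FPKM minimum, centring and scaling.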

Additional observations from a re-analysis of the deposited data

How the results depend on the processing

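In 1 alternative, differences were centred on the median of genes with at least 1 FPKM in both groups (-0.11). No call among the 36 genes with an estimate then changed. The authors' q-values were kept, so only a change of sign could alter a call here. Some genes that were not called did change sign, such as ELOVL7 (-0.04 as deposited and 0.07 when centred). A pseudocount of 0.1 cannot change a sign, and summing the rows of a symbol added only rows listed at 0. Neither alternative could therefore alter a call of these genes. With a q-value threshold of 0.01, PLIN2 was no longer called, leaving 1 droplet coat gene called lower, and 0 mitochondrial synthesis genes were called higher. With at least 1 FPKM required in 1 or both groups, PNPLA3 and ELOVL4 were not covered, leaving 0 lipolysis genes called lower and 0 elongases called higher. Calls limited to a difference of at least 1 left 10 genes lower and 1 higher: elongation kept 1 lower and 0 higher, assembly 0 lower and 1 higher, lipolysis 0 and 0, the droplet coat 0 lower and desaturation 0 higher. Persister values multiplied to match the parental FPKM sum were an alternative added after seeing the data. The differences of ACSS2 (0.10) and PLIN2 (0.073) then turned positive. By sign, this gave 1 called synthesis gene higher and 1 called coat gene in each direction. The q-values were not recomputed, so these changes of direction were not tested. The median over the 36 genes was -0.32 when centred, -0.55 with a pseudocount of 0.1 and -0.16 with matched sums. No paired analysis was possible because the table holds 1 value a group, and for the same reason no library could be left out. Depth, and with it the precision of genes under 1 FPKM, is unknown.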
